A study of Homo sapiens with 15 samples.

Results

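The genes described here build the mitochondrial ribosome and the machinery that brings proteins into mitochondria. They were taken as every row of the expression table whose platform gene symbol starts with MRPL or MRPS followed by a digit, with TIMM, or with TOMM, and each symbol was represented by its brightest row. This gave 102 genes out of 14884 named genes. Of these, 48 were proteins of the large ribosomal subunit (MRPL), 25 proteins of the small subunit (MRPS), 14 protein-coding genes with TIMM symbols and 10 with TOMM symbols. Most of these 24 encode subunits of the inner and outer membrane import complexes, but TIMMDC1 and TOMM34 have other roles, given below. The last 5 members do not code for such proteins: the antisense RNAs MRPL20-AS1 and MRPL23-AS1 and the transcribed pseudogenes MRPL42P5, MRPL45P2 and MRPS31P5. After a filter on dim rows 101 of the 102 genes were tested, and the pseudogene MRPL42P5 fell below the filter.

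The cells were Caco-2, an established human colon carcinoma line that becomes enterocyte-like in long culture, measured on whole-transcript arrays in 3 groups of 5 arrays between 15 and 19 days after seeding. Control cells were untreated. LPS cells received lipopolysaccharide of the E. coli K12 strain, a ligand of the receptor TLR4, at 1 µg/mL for 48 h. LPS+RSV cells received 50 µM trans-resveratrol, a plant polyphenol dissolved in ethanol, 1 h before the same LPS exposure. The labels do not say whether the control and LPS cells received ethanol. Since the replicates are numbered without stating separate cultures, the p-values here rest on a spread between arrays that may be technical.

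Mitochondria keep a small genome of their own, and its messenger RNAs are translated by a ribosome whose proteins are all encoded in the nucleus, made in the cytosol and imported. Import begins at the TOM complex of the outer membrane, where receptors hand proteins to the TOMM40 pore. From there the TIM23 complex takes proteins with a cleavable presequence to the matrix or the inner membrane, and small TIM chaperones carry hydrophobic carrier proteins across the intermembrane space to the TIM22 complex. In enterocytes, as in other cells with a high demand for ATP, the products of both systems feed the respiratory chain.

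The promoters of these genes are shown first, because the members share letters there that the choice by symbol did not use. Promoters of 250 bases before to 50 bases after the annotated start were available in RefSeq (GRCh38.p14) for 89 of the 102 members and 27305 genes in all, of which 8921 were among the genes tested on the arrays. They were searched on both strands for a core of the NRF1 motif (GCGCANGCG), an ETS core (CCGGAAG) and a core of the YY1 motif (AAGATGGC), and a gene with several starts counted if any of them held the letters. The ETS letters stood in 40 of 89 member promoters (44.9%), in 12.2% of all promoters and in 19.1% of those of tested genes. The YY1 letters stood in 22 members (24.7%), in 3.52% of all promoters and in 5.53% of those of tested genes. The NRF1 letters stood in 19 members (21.3%), in 9.02% of all promoters and in 14.5% of those of tested genes. In the shorter window of 100 bases before to 50 after the start, the ETS and YY1 letters remained in 37 and 20 members, and the NRF1 letters in 8 (8.99%, against 10.3% of tested genes). A match of letters describes the sequence and is no measured binding.

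Stretches of 120 bases are printed for members that the results below turn on, 5′ to 3′ on the gene's strand, with the searched letters or their reverse complement in capitals. TOMM34 (chr20:44960358-44960477, minus strand) has NRF1 and ETS letters that adjoin, TIMM23 (chr10:45972409-45972528, plus strand) has the ETS letters on both strands, and MRPS12 (chr19:38930864-38930983, plus strand) has the ETS letters close to its start. TOMM40 (chr19:44891004-44891123, plus strand) has the NRF1 letters far upstream, so its stretch was taken there. TOMM7 (chr7:22822810-22822929, minus strand) has the NRF1 letters, MRPL50 (chr9:101398579-101398698, minus strand) and MRPS27 (chr5:72320201-72320320, minus strand) have the YY1 letters just after the start, and MRPL30 (chr2:99181029-99181148, plus strand) has ETS and NRF1 letters upstream. TIMM17B (chrX:48897729-48897848, minus strand) holds none of these letters in its promoter window.
TOMM34: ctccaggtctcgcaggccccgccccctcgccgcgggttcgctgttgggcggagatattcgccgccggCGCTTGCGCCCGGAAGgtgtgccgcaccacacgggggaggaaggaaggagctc
TIMM23: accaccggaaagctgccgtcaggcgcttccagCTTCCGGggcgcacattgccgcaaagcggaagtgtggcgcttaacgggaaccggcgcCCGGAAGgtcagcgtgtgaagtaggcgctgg
MRPS12: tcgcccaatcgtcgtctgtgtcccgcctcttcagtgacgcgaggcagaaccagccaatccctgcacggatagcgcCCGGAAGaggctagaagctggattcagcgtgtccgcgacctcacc
TOMM40: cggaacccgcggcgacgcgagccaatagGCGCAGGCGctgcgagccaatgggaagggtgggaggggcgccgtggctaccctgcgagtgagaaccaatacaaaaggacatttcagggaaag
TOMM7: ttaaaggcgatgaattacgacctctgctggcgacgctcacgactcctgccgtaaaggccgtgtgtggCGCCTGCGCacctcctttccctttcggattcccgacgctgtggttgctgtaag
MRPL30: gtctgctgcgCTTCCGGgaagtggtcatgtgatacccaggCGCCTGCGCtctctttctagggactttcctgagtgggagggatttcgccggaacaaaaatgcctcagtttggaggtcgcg
MRPL50: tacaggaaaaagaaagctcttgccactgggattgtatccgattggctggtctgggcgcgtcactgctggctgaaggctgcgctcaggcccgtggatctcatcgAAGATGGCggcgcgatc
MRPS27: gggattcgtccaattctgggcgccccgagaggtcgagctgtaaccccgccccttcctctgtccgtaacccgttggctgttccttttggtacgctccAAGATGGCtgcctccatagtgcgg
TIMM17B: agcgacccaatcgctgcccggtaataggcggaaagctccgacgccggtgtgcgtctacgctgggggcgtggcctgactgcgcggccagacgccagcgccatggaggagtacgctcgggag

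Expression values were log2 values made with RMA by the submitters, 1 per array and row, and a difference of 1 is a doubling. A gene was called in a comparison when limma's adjusted p was under 0.05 over all 11804 genes tested. Cell type markers were looked at first, and 15 of 22 enterocyte and epithelial markers were named in the table. Their mean log2 values ran from 5.27 (LCT, lactase) to 12.65 (APOB, an apolipoprotein). The villin gene VIL1, the adhesion molecule EPCAM and sucrase-isomaltase (SI) had 10.95, 11.89 and 12.04, while CDX1, KRT20 and KRT8 had 6.03, 6.07 and 6.90. Of 13 fibroblast, immune and endothelial markers only 3 were named in the table, CD68, PECAM1 and VWF, at 11.55, 5.78 and 5.56. Of 9 goblet, Paneth and endocrine markers 6 were named, with values from 5.10 (CHGA) to 6.87 (TFF3). Values of different rows are not comparable as levels, so these values do not settle the cell type. Array LPS+RSV 1 was the least like the rest: its correlation with each of the others averaged 0.946, where the other 14 arrays averaged 0.973 to 0.984, so results are also given without it where they move. A score over 35 cell cycle genes differed among arrays of each group, with -1.004 to 0.47 across control arrays, -0.03 to 0.99 across LPS arrays and -0.88 to 0.45 across LPS+RSV arrays, and it is given beside the genes it moves with. Its group means were -0.13 in control, 0.43 in LPS and -0.30 in LPS+RSV. All 35 of its genes had higher means in LPS than in control (median difference 0.56) and lower means in LPS+RSV than in LPS (median difference -0.69). None of the 35 was called in limma. At an unadjusted p under 0.05 there were 11 and 23 of the 35, against 7.88% and 18.6% of all genes tested. The part of this score in the members' differences was not tested beyond the covariate values given below.

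No member was called in any of the 3 comparisons. In LPS against control 0 of 101 members were called, where 0.0254% of all genes tested were. In LPS+RSV against LPS the count was 0 of 101 against 0.0424%, and in LPS+RSV against control 0 of 101 against 0%. The lowest adjusted p of limma among members was 0.282, 0.145 and 0.464 in the 3 comparisons.

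Confidence intervals give a range for each difference. Like the p-values, they rest on the spread between arrays, which may be technical, so they may not bound the effect of a treatment. The median SE was 0.080 for members and 0.098 for all genes tested, and intervals narrow with the SE. In LPS against control the 95% confidence interval of the difference lay within 0.5 on the log2 scale, a factor of 1.41, for 98 of 101 members, against 88.1% of all genes tested. In LPS+RSV against LPS it did so for 98 members against 81.5%, and in LPS+RSV against control for 96 against 84.3%. For all 101 members the interval lay within 1, a factor of 2, in each of the 3 comparisons, as it did for 98.5%, 97.2% and 98.4% of all genes. The members whose interval reached past 0.5 in LPS against control were TOMM40, TOMM34 and MRPS26. The same listing in LPS+RSV against LPS held MRPL50, MRPS26 and TOMM34, and in LPS+RSV against control MRPL1, MRPL42, MRPL50, MRPS26 and the antisense RNA MRPL23-AS1.

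**Figure D1:**
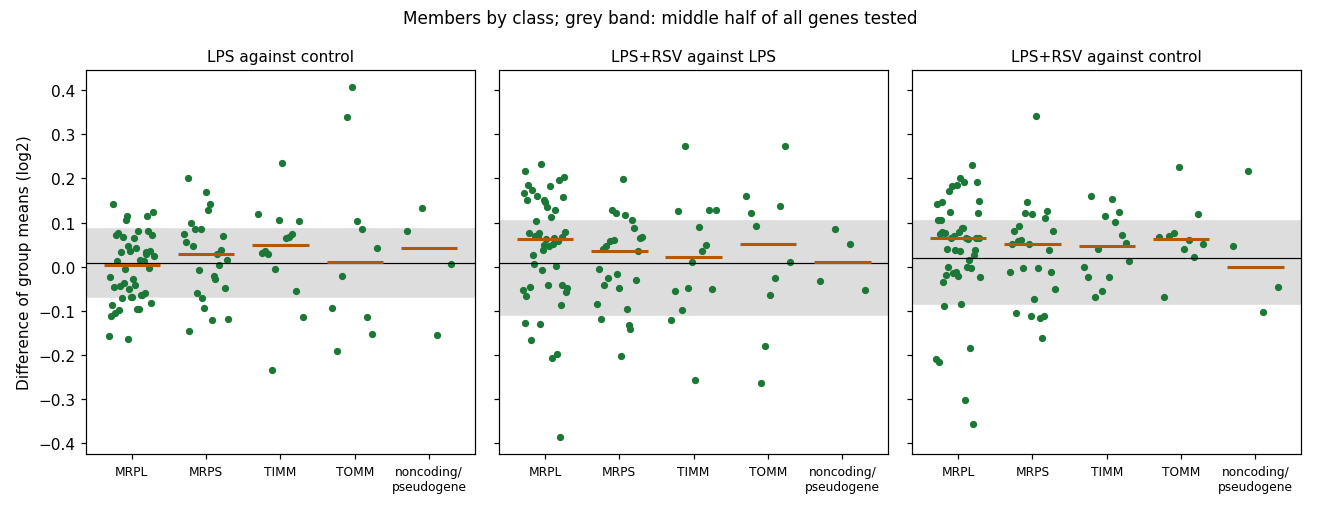
Log2 differences of the 101 tested members (points, grouped by class) for LPS over control, for LPS+RSV over LPS, and for LPS+RSV over control; the orange bar is the class median, the grey band the range between the quartiles of all 11804 genes tested and the black line their median. Most points lie in or near the grey band, with members' differences from -0.23 to 0.41, -0.39 to 0.27 and -0.36 to 0.34 in the 3 comparisons.

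The first comparison addresses the response of the cells to LPS. The median log2 difference of the 101 members was 0.02, against 0.01 over all genes tested, and 57 of 101 members had a difference above 0 (56.4%, against 52.7% of all genes). By class the medians were 0.00 for 48 large subunit genes, 0.03 for 25 small subunit genes, 0.05 for 14 TIMM genes and 0.01 for 10 TOMM genes. At an unadjusted p under 0.05 there were 7 members (6.93%), against 7.88% of all genes tested. Of these 5 were higher in LPS (4.95%, against 4.62%) and 2 lower (1.98%, against 3.26%). The count was 3 without control 3 or LPS 2 (2.97%, against 6.42% and 5.78% of all genes). It was 4 without control 1, LPS 1 or LPS 5 (3.96%, against 7.92%, 6.43% and 7.1%). The arrays of LPS and control did not overlap at all for 3 members, against 2.21% of all genes. These were TOMM40 and MRPS12, higher in LPS (1.08% of all genes were so), and TIMMDC1, lower in LPS (1.13% of all genes).

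TOMM40 forms the channel of the outer membrane through which nearly all imported proteins pass. Its log2 values were 8.49, 8.52, 8.49, 8.45 and 8.36 in control and 8.67, 8.84, 8.77, 9.04 and 9.03 in LPS. In LPS+RSV they were 9.02, 8.76, 8.50, 8.66 and 8.50. Every LPS array thus stood above every control array, and the LPS+RSV arrays spanned both ranges. The difference of LPS from control was 0.41 ± 0.10 (SE), or 1.33-fold, with an adjusted p of 0.282 by limma. The table holds a second, dimmer TOMM40 row, in which the same difference was 0.08 and whose values had a correlation of -0.08 with the row used. The mean of both rows differed by 0.25.

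MRPS12 sits at the decoding centre of the small subunit. Its control values were 6.79, 6.72, 6.63, 6.79 and 6.60, its LPS values 6.89, 6.81, 6.96, 6.93 and 6.94, and its LPS+RSV values 7.12, 6.75, 6.70, 6.57 and 6.79. The lowest LPS array stood just above the highest control array, and LPS+RSV held both the highest and the lowest array of all. The difference of LPS from control was 0.20 ± 0.09 (SE), with an adjusted p of 0.587 by limma. MRPS23, another small subunit protein, differed by 0.17 ± 0.08 (SE), with overlapping groups, and by 0.10 with the cell cycle score as a covariate.

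TOMM34 is a cytosolic co-chaperone that binds HSP70 and HSP90 and precursor proteins. Its values were 9.14, 9.28, 9.20, 9.04 and 8.99 in control, 9.24, 9.18, 9.52, 9.66 and 9.77 in LPS, and 9.24, 9.42, 9.36, 9.19 and 8.82 in LPS+RSV. LPS 3, 4 and 5 stood above every other array, while LPS 1 and 2 lay within the control range. The difference of LPS from control was 0.34 ± 0.12 (SE), with an adjusted p of 0.514 by limma. It was 0.18 with the cell cycle score as a covariate. Leaving out LPS 1 and 2, its lowest LPS arrays, made the difference larger by construction, at 0.52.

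TIMM23 forms the presequence channel of the inner membrane. A near-identical human copy, TIMM23B, exists, so its signal may not be specific. TIMM23 had values of 9.98, 10.22, 9.94, 9.97 and 9.85 in control, 10.36, 10.24, 10.07, 10.20 and 10.26 in LPS, and 9.77, 10.35, 9.98, 9.93 and 9.81 in LPS+RSV. LPS was higher in most arrays, but control 2 and LPS+RSV 2 lay inside the LPS range. The differences were 0.23 ± 0.10 (SE) for LPS against control and -0.26 ± 0.10 (SE) for LPS+RSV against LPS, with adjusted p-values of 0.591 and 0.204 by limma. With the cell cycle score as a covariate they were 0.11 and -0.10.

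TIMM17B, which pairs with TIMM23 in the same channel, took lower values in LPS. They were 6.95, 7.07, 6.84, 6.74 and 6.87 in control, 6.85, 6.60, 6.84, 6.42 and 6.59 in LPS, and 7.10, 6.78, 6.86, 6.84 and 7.10 in LPS+RSV. The groups overlapped in both comparisons. The differences were -0.23 ± 0.10 (SE) for LPS against control and 0.27 ± 0.10 (SE) for LPS+RSV against LPS, with adjusted p-values of 0.577 and 0.172 by limma. Its paralogue TIMM17A differed by 0.03 ± 0.07 and -0.10 ± 0.07 (SE) in these comparisons.

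The other members named for this comparison ranked lowest in unadjusted p among those lower in LPS, and had smaller differences. Of them only MRPL30 had an unadjusted p under 0.05 in limma. TIMMDC1, an assembly factor of respiratory complex I, had control arrays between 10.36 and 10.44, LPS arrays between 10.14 and 10.36 and LPS+RSV arrays between 10.34 and 10.47. The highest LPS array thus lay just below the lowest control array. Its difference of LPS from control was -0.12 ± 0.06 (SE). TOMM6 and TOMM7, small subunits of the TOM complex, differed by -0.12 and -0.15, and MRPL30, of the large subunit, by -0.16. Without LPS 1 and 2 the difference was -0.08 for TOMM7 and -0.10 for MRPL30.

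**Figure D2:**
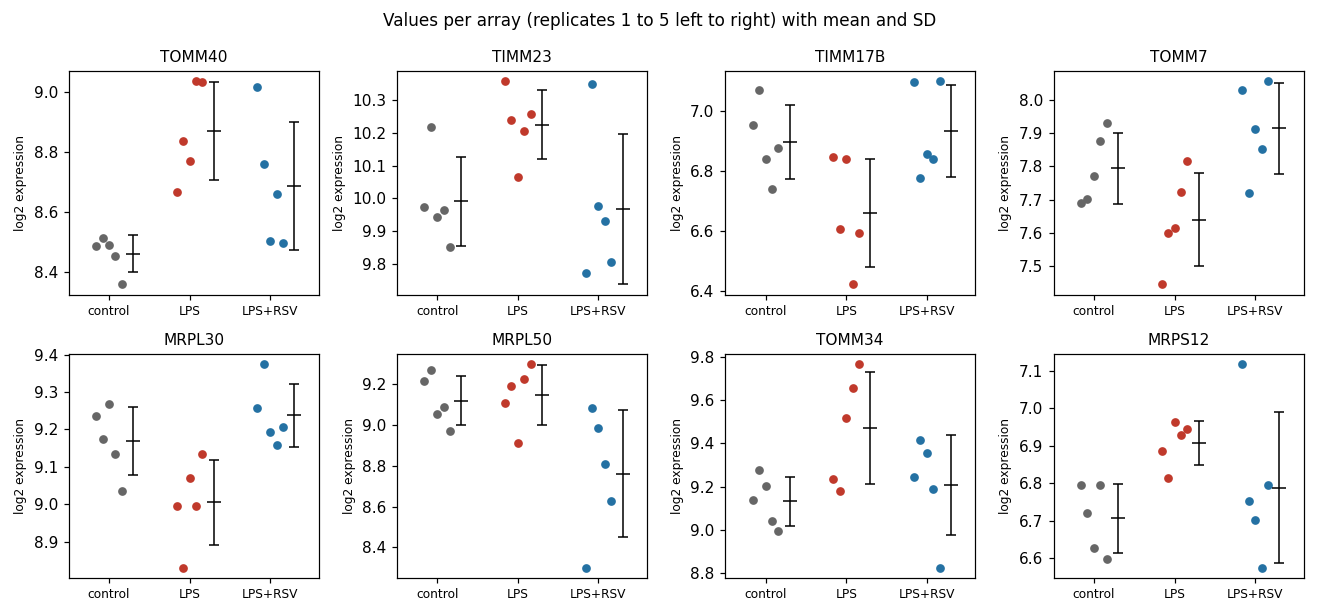
Log2 expression in each of the 15 arrays for 8 members, TOMM40, TIMM23, TIMM17B, TOMM7, MRPL30, MRPL50, TOMM34 and MRPS12, by group, with the mean ± SD of 5 arrays. TOMM40 and MRPS12 show LPS arrays that all lie above the control arrays, and MRPL30 shows LPS+RSV arrays that all lie above the LPS arrays, while the other panels overlap.

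The second comparison asks what resveratrol added to LPS. The median difference of the members, LPS+RSV minus LPS, was 0.05, against 0.01 over all genes tested, and 62 of 101 had a difference above 0 (61.4%, against 52.1% of all genes). By class the medians were 0.06 for the large subunit, 0.04 for the small subunit, 0.02 for TIMM and 0.05 for TOMM. At an unadjusted p under 0.05 there were 17 members (16.8%) against 18.6% of all genes tested. Of these 13 were higher in LPS+RSV (12.9%, against 8.08% of all genes) and 4 lower (3.96%, against 10.5%). After a further quantile normalization the split was 23 higher and 1 lower (23.8% together, against 18.9% of all genes). After cyclic loess it was 19 and 3 (21.8%, against 18.3%). Without LPS 1 and 2 it was 5 and 4 (8.91%, against 13.2%). The shares of all genes by direction were not counted under these settings. The count was 9 without LPS 4 (8.91%, against 14.5%) and 11 without LPS+RSV 1 (10.9%, against 14%). Groups that did not overlap were found for 2 members, against 2.8% of all genes. Both were higher in LPS+RSV (1.41% of all genes were so), and 0 were lower (1.39% of all genes).

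MRPL30 had the lowest unadjusted p in this comparison. Its values were 8.996, 8.83, 9.07, 8.995 and 9.13 in LPS and 9.26, 9.37, 9.19, 9.16 and 9.21 in LPS+RSV, against 9.24, 9.17, 9.27, 9.13 and 9.04 in control. Every LPS+RSV array stood above every LPS array, and the control arrays overlapped both. The difference was 0.23 ± 0.07 (SE), or 1.18-fold, with an adjusted p of 0.145 by limma. MRPL27, of the same subunit, was the other member whose groups did not overlap. Its difference was 0.07 ± 0.05 (SE), and 0.13 after a further quantile normalization, with LPS arrays from 8.25 to 8.30 and LPS+RSV arrays from 8.31 to 8.42.

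TOMM7, the small TOM subunit also known to hold the kinase PINK1 at the outer membrane of damaged mitochondria, had values of 7.45, 7.60, 7.62, 7.72 and 7.82 in LPS and 8.03, 7.72, 7.91, 7.85 and 8.06 in LPS+RSV. In control they were 7.69, 7.70, 7.77, 7.88 and 7.93. LPS+RSV 2 lay within the LPS range and the other LPS+RSV arrays above it. The difference of LPS+RSV from LPS was 0.27 ± 0.08 (SE), or 1.21-fold, with an adjusted p of 0.151 by limma. TOMM6 differed by 0.14 ± 0.06 and TOMM5, the third small subunit, by -0.03 ± 0.07 (SE).

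The receptors of the TOM complex were not called either. TOMM20, which binds presequences, had means of 8.30 ± 0.08 in control, 8.21 ± 0.07 in LPS and 8.37 ± 0.12 in LPS+RSV (SD, n = 5), and LPS+RSV differed from LPS by 0.16 ± 0.07 (SE), with an adjusted p of 0.241 by limma. Its LPS+RSV mean was raised by LPS+RSV 1, which had 8.58, against 8.28 to 8.36 in the other LPS+RSV arrays. TOMM22, the central receptor, had means of 8.91 ± 0.08, 8.89 ± 0.11 and 8.98 ± 0.04 (SD, n = 5). TOMM70, the receptor for carrier proteins, had means of 9.23 ± 0.03, 9.27 ± 0.05 and 9.28 ± 0.08 (SD, n = 5). TOMM20, TOMM22 and TOMM40 have 4, 6 and 4 pseudogenes named for them in RefSeq. Such pseudogenes are named for 47 of the 102 members, among them MRPL42 with 6, MRPL50 with 4 and MRPL30 with 2. Whether the members' probes also read these was not tested.

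MRPL50, a large subunit protein with no bacterial counterpart, was lower in LPS+RSV. Its values were 9.22, 9.27, 9.05, 9.09 and 8.97 in control, 9.11, 9.19, 8.91, 9.23 and 9.30 in LPS, and 8.30, 9.09, 8.99, 8.81 and 8.63 in LPS+RSV. LPS+RSV 1 stood lowest, and LPS+RSV 2 and 3 overlapped the LPS range. The difference of LPS+RSV from LPS was -0.39 ± 0.12 (SE), with an adjusted p of 0.16 by limma. It was -0.27 without LPS+RSV 1 and -0.18 with the cell cycle score as a covariate.

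MRPL11 and MRPL16, of the large subunit, were among the other members with higher values in LPS+RSV, with differences from LPS of 0.22 ± 0.08 and 0.18 ± 0.07 (SE). Without LPS 1 and 2 that of MRPL16 was 0.12. MRPS25 of the small subunit differed by -0.20 ± 0.09 (SE), and by -0.09 with the cell cycle score as a covariate. For TOMM34 the difference was -0.26 ± 0.12 (SE), with -0.05 under that covariate and -0.17 without LPS+RSV 5. It was -0.44 without LPS 1 and 2, its lowest LPS arrays. MRPL19 differed by -0.17 ± 0.09 (SE), and by -0.10 without LPS+RSV 1 or without LPS 2.

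The third comparison sets LPS+RSV against untreated cells. The 3 comparisons share arrays, so their values are not independent of each other. The median difference of the members was 0.05, against 0.02 over all genes tested, and 66 of 101 members had a difference above 0 (65.3%, against 55.8% of all genes). At an unadjusted p under 0.05 there were 11 members (10.9%), against 10.5% of all genes tested. Of these 9 were higher in LPS+RSV (8.91%, against 4.09%) and 2 lower (1.98%, against 6.4%). Without LPS+RSV 1 the count was 1 (0.99%, against 5.33%). It was 5 without control 1 or control 3 (4.95%, against 6.01% and 8.44% of all genes). Without control 2 it was 6 (5.94%, against 6.38%), and without LPS+RSV 5 it was 7 (6.93%, against 8.95%). No member had groups that did not overlap, against 1.72% of all genes (0.627% higher and 1.09% lower in LPS+RSV).

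The members with the lowest unadjusted p here were of the large subunit. MRPL49 had control arrays between 7.69 and 7.85, LPS arrays between 7.63 and 8.03 and LPS+RSV arrays between 7.83 and 8.30, and differed from control by 0.23 ± 0.09 (SE) in LPS+RSV. MRPL38, MRPL34 and MRPL28 differed by 0.20, 0.19 and 0.18, and the small TIM chaperone TIMM13 by 0.16. Without LPS+RSV 1 these 5 differences were 0.16, 0.12, 0.12, 0.13 and 0.12, in the order given. MRPL50 and MRPL42 differed by -0.36 ± 0.12 and -0.30 ± 0.13 (SE), and by -0.24 and -0.20 without LPS+RSV 1. MRPL13 and MRPS30 differed by -0.22 and -0.16, and each by -0.07 without LPS+RSV 1. Limma's adjusted p was 0.464 or more for every member in this comparison.

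**Figure D3:**
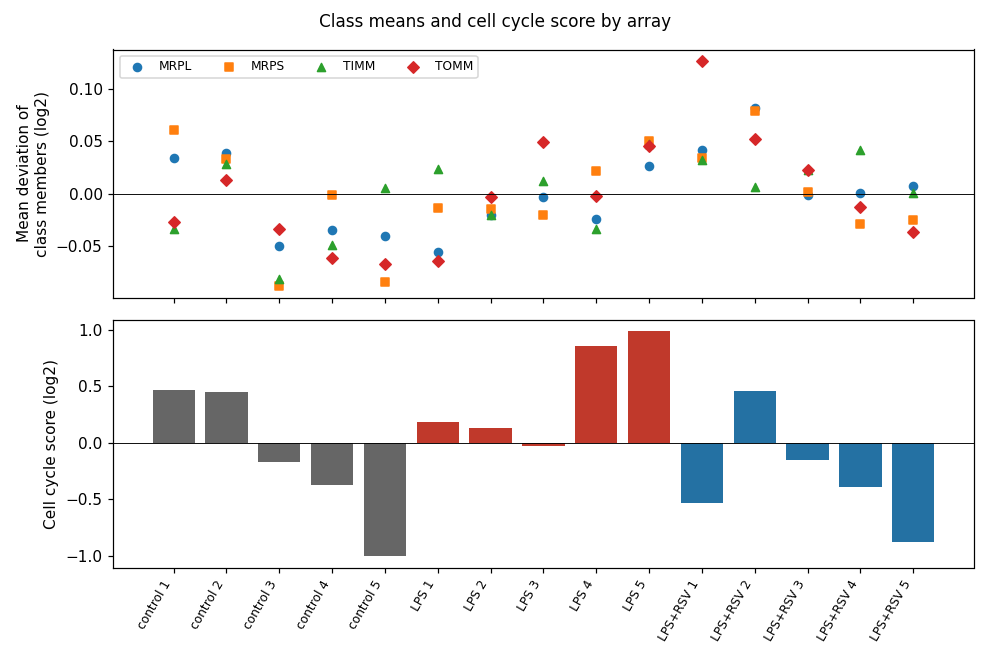
Mean log2 deviation of the MRPL, MRPS, TIMM and TOMM genes in each array from each gene's mean over all 15 arrays, with the cell cycle score of the same arrays as bars. The 4 class means stay between -0.09 and 0.13 in every array, while the cell cycle score runs from -1.004 to 0.99.

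Averaged over genes, the classes varied little from array to array. The mean deviation of the 48 large subunit genes lay between -0.05 and 0.04 over control arrays, between -0.06 and 0.03 over LPS arrays and between -0.00 and 0.08 over LPS+RSV arrays. That of the 25 small subunit genes lay between -0.09 and 0.06, -0.02 and 0.05, and -0.03 and 0.08. The TOMM genes had their highest array, 0.13, in LPS+RSV 1, and lay between -0.07 and 0.01 in control and between -0.06 and 0.05 in LPS. The groups overlapped for each class.

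Within groups the correlations among members were mostly weak. Over the 5050 pairs of members the median correlation of deviations from the group means over the 15 arrays was 0.08, against 0.01 between members and other genes. The share of pairs with a correlation above 0.5 was 16.2%, against 12.2% between members and other genes. Within the large subunit the median was 0.12, within the small subunit 0.13 and among TOMM genes 0.12, while among the 14 TIMM genes it was 0.02. All pairs share the same arrays, so these values describe the arrays at hand.

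Some members followed the cell cycle score of the arrays within groups. This relation was added after the values had been seen, and was fitted in limma as a slope on the score next to the 3 group means. In that fit 27 of 101 members had a slope with an adjusted p under 0.05, which is 26.7% against 23.3% of all genes tested. Of these 19 were positive (18.8%, against 13.7% of all genes) and 8 negative (7.92%, against 9.58%). Without control 5 and LPS 5, whose scores lay farthest from the median, 9 members remained (8.91%, against 15.2% of all genes). Leaving out LPS+RSV 2 alone gave 14 (against 15.7% of all genes) and control 5 alone 15 (against 18.7%), so the count depends on several arrays. Of the 9, 7 were positive (6.93%, against 9.01%) and 2 negative (1.98%, against 6.23%). All 27 slopes kept their sign there.

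Steep slopes were found in several classes, and the genes named next were chosen after their values were seen. MRPS31 changed by 0.39 ± 0.06 (SE) per unit of score, with an adjusted p of 0.000287 by limma, and by 0.36 without the 2 farthest arrays. In control its values were 7.75, 7.56, 7.26, 7.40 and 6.94, in LPS 7.31, 7.44, 7.17, 7.59 and 7.54, and in LPS+RSV 7.06, 7.50, 7.32, 7.33 and 7.13. Control 1 and 2, with the highest control scores, stood highest there, and control 5, with the lowest score, stood lowest. MRPS27, which belongs to the pentatricopeptide repeat family, and MRPS14 had slopes of 0.34 ± 0.07 and 0.24 ± 0.05 (SE). In the large subunit MRPL42 had a slope of 0.36 ± 0.07 (SE), and 0.43 without the 2 farthest arrays. The antisense RNA MRPL23-AS1 had one of -0.38 ± 0.09 (SE), and -0.47 without them.

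MRPS26, a small subunit protein, went the other way. Its values were 7.97, 7.70, 8.12, 8.52 and 8.37 in control, 8.38, 8.34, 8.70, 8.06 and 7.93 in LPS, and 8.93, 7.99, 8.22, 8.63 and 8.63 in LPS+RSV. It had the largest spread within groups of all members, with a residual SD of 0.33. The slope was -0.53 ± 0.09 (SE) per unit of score, with an adjusted p of 0.000609 by limma, and -0.65 without the 2 farthest arrays. The difference of LPS+RSV from control was 0.34 ± 0.19 (SE), about the size of that SD, with overlapping groups and an adjusted p of 0.493 by limma.

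Among the import genes, TIMM21, the subunit that links the TIM23 complex to respiratory chain assembly, had a slope of 0.33 ± 0.07 (SE), with an adjusted p of 0.00209 by limma, while its group means differed by at most 0.06. The 5 small TIM chaperones looked at together were TIMM8A, TIMM8B, TIMM9, TIMM10 and TIMM13. Of these 4 had a slope with an adjusted p under 0.05 in that fit, where 23.3% of all genes did. TIMM10B, of the same family, was grouped with TIMM22 for the TIM22 complex, and 0 of these 2 had such a slope. TIMM8A, TIMM8B and TIMM13 had slopes of -0.26 ± 0.07, -0.23 ± 0.07 and -0.14 ± 0.05 (SE). TIMM9, a partner of TIMM10 in carrier import, had a positive slope of 0.15 ± 0.05 (SE), and TIMM10 one of 0.16 ± 0.07 (SE) with an adjusted p of 0.103. None of these small TIM slopes had an adjusted p under 0.05 in limma without the 2 farthest arrays. In group means none of the 5 differed by more than 0.16.

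**Figure D4:**
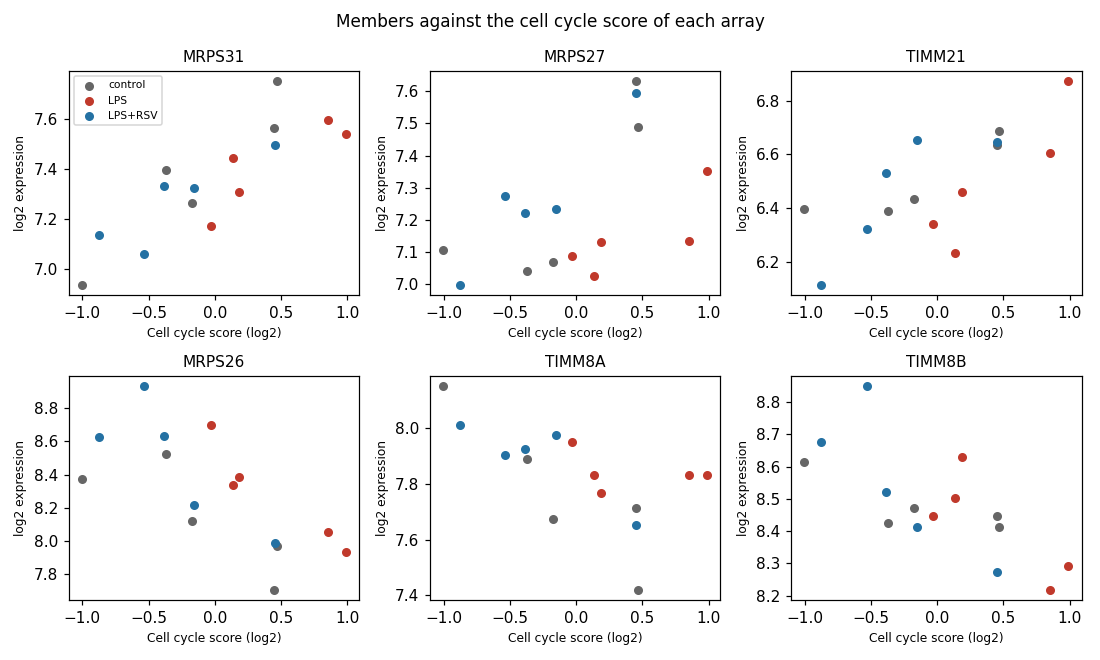
Log2 expression of MRPS31, MRPS27, TIMM21, MRPS26, TIMM8A and TIMM8B (vertical axis) against the cell cycle score of each array (horizontal axis, mean log2 deviation of 35 genes), with arrays marked by group. MRPS31, MRPS27 and TIMM21 have higher values in arrays of higher score, and MRPS26, TIMM8A and TIMM8B lower ones.

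The remaining subunits described here had group means close to each other. TIMM50, the receptor of the TIM23 complex, had means of 8.87 ± 0.08 in control, 8.94 ± 0.06 in LPS and 8.97 ± 0.13 in LPS+RSV (SD, n = 5). TIMM44, which ties the HSP70 import motor to the channel, had means of 8.10 ± 0.10, 8.17 ± 0.07 and 8.26 ± 0.12 (SD, n = 5). In the carrier pathway TIMM22, the channel, had means of 9.93 ± 0.06, 10.03 ± 0.08 and 10.04 ± 0.07 (SD, n = 5). The largest of these differences, 0.15 ± 0.07 (SE) for TIMM44 between LPS+RSV and control, had an adjusted p of 0.475 by limma.

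The median differences of members with and without the promoter letters are given here as a description. In LPS+RSV against LPS the median was 0.05 for the 40 members with the ETS letters and 0.05 for the 49 without. It was 0.01 for the 22 members with the YY1 letters and 0.05 for the 67 without, and 0.08 for the 19 with the NRF1 letters and 0.04 for the 70 without. In LPS against control these pairs of medians were 0.03 and 0.03 for ETS, 0.01 and 0.03 for YY1, and -0.03 and 0.03 for NRF1. No test was made of these differences.

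The other genes that serve mitochondrial translation and import were followed through lists of translation factors, ribosome assembly factors, ribosomal proteins with other symbols, RNA processing genes, import motor and proteases, and outer membrane and cristae complexes. Of 114 listed genes 69 were tested, and the 17 mitochondrial aminoacyl-tRNA synthetases on the lists were not named in the table. In limma 0 of the 69 were called in each comparison, against the 0.0254%, 0.0424% and 0% of all genes given above. At an unadjusted p under 0.05 LPS against control had 1 higher and 1 lower, LPS+RSV against LPS had 8 higher and 11 lower, and LPS+RSV against control had 3 higher and 6 lower. These are 2.90%, 27.5% and 13.0% of the 69 genes, against 7.88%, 18.6% and 10.5% of all genes tested. Their median differences were -0.01, 0.00 and 0.00.

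None of the genes named next was called in LPS+RSV against LPS. They have low unadjusted p-values there, the lowest being those of YBEY and PNPT1. YBEY, an endonuclease of ribosome assembly, had means of 7.74 ± 0.12 in LPS and 8.05 ± 0.15 in LPS+RSV (SD, n = 5), a difference of 0.31 ± 0.08 (SE) with an adjusted p of 0.111 by limma. PNPT1, the mitochondrial polynucleotide phosphorylase, had means of 9.15 ± 0.14 and 8.62 ± 0.29 (SD, n = 5), a difference of -0.53 ± 0.15 (SE) with an adjusted p of 0.129 by limma. LRPPRC, which binds and stabilises mitochondrial messenger RNA, differed by -0.23 ± 0.07 (SE), with an adjusted p of 0.16 by limma. IMMP1L, a subunit of the inner membrane peptidase, differed by -0.53 ± 0.17, the GTPase GTPBP10 by -0.38 ± 0.13 and the carrier-like outer membrane protein MTCH2 by -0.24 ± 0.08 (SE). IMMP1L had a mean of 4.81 ± 0.45 in LPS+RSV (SD, n = 5), below the filter's 40th percentile of 5.05 to 5.09 in those arrays. Its value there is thus near the floor. GTPBP10 had an SD of 0.37 in LPS+RSV and 0.10 in LPS. Values without LPS+RSV 1 are not given for these genes. The lists' median differences in this comparison ran from -0.07 for the 10 translation factors and the 12 RNA processing genes to 0.10 for the 10 import motor and protease genes.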

How the data were processed

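Expression was measured on whole-transcript arrays in 15 samples of Caco-2 cells, labelled as 3 groups of 5, from 300 ng of total RNA each, per the labels. The deposited values were log2 expression values for which the submitters' processing notes name RMA, a method that corrects background, quantile-normalizes and summarises probes. Its version and the genome build of the array annotation are not given in the sources used here. Of 53617 rows 16098 had 1 gene symbol, from the platform annotation, 0 had several and 37519 were unnamed here. The brightest row per symbol gave 14884 genes. Genes above the 40th percentile of all rows in at least 5 arrays were kept, 11804 in all.

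The functions lmFit and eBayes of limma 3.58.1 (R 4.3.3) were run with 1 mean per group over the 15 arrays, with Benjamini-Hochberg adjustment over the 11804 genes and an adjusted p under 0.05 as the threshold. The script was tested on simulated data. Adjusted p-values are limma's throughout. A score was the mean log2 deviation of a list's genes from their means over all arrays. The named members were those with non-overlapping groups, the 5 of lowest unadjusted p in each direction and subunits chosen by role; others are said to be chosen after their values were seen. The members and lists were chosen with earlier results of these data known. MRPL58, a member that also stood on a list, was counted as a member only. Arrays carry no read depth, and their number limits the precision. Replicate numbers were not taken to pair the arrays: correlations of same-numbered arrays ran from -0.54 to 0.71. Alternatives were other filters, rows, normalizations, moderation, array weights, a replicate block, a cell cycle covariate and each array left out. LPS 1 and 2 were also left out together. Promoter sequences are RefSeq's (GRCh38.p14). Protein sequences were not used here.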

Additional observations from a re-analysis of the deposited data

Results flagged for a closer look

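In the 150 groups of 5 arrays over the 50 members named by rule, 7 had 1 array far from the other 4 by Dixon's criterion at its 95% value, and chance gives about 1 in 20 groups. LPS+RSV 1 was that array for 4 of the 7. MRPL13 had a value of 6.72 there, against 7.37 to 7.56 in the other LPS+RSV arrays. MRPS30 had 8.97, against 9.42 to 9.49, and MRPL38 had 7.13, against 6.70 to 6.79. TOMM20 had 8.58 in LPS+RSV 1, against 8.28 to 8.36, and 8.15 in control 2, against 8.31 to 8.36 in the other controls. MRPL27 had 8.42 in LPS+RSV 5, against 8.31 to 8.33. TOMM22 had 8.70 in LPS 4, against 8.92 to 8.98 in the other LPS arrays.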

How the results depend on the processing

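Under all 22 alternatives of each comparison 0 members were called, with the replicate block included, and the 682 alternative values of the members named in a comparison kept their direction and stayed above an adjusted p of 0.05 in limma; the lowest was 0.0526, for TOMM40 in LPS against control with array weights. The median of members in LPS+RSV against LPS was 0.05, against 0.01 over all genes tested. It was 0.0887 after a further quantile normalization (against 0.0228) and 0.00540 without LPS 1 and 2 (against 0.00762). Leaving out each array, the medians ran from -0.00 to 0.03, 0.02 to 0.06 and 0.03 to 0.07 in the comparisons of LPS with control, of LPS+RSV with LPS, and of LPS+RSV with control. The counts at an unadjusted p under 0.05, whose alternatives were added after seeing the data, were 7, 17 and 11 in that order and ran from 3 to 8, 9 to 20 and 1 to 15 over single arrays left out. The highest of these counts, 8, 20 and 15, were 7.92%, 19.8% and 14.9% of members, against 9.51%, 24.9% and 13.9% of all genes. With array weights LPS against control had 14 (13.9%, against 12.4% of all genes) and LPS+RSV against control had 6 (5.94%, against 6.79%). With the 2 groups compared alone they were 9 in LPS+RSV against LPS (8.91%, against 16.1%) and 5 in LPS+RSV against control (4.95%, against 7.5%). With the replicate block they were 11 and 4 in those comparisons (against 16.6% and 8.85% of all genes). With the cell cycle covariate the count was 14 in LPS against control (13.9%, against 16% of all genes), and it was 9 in LPS+RSV against LPS without LPS 1 and 2 (8.91%, against 13.2%). In LPS against control the split of higher and lower was 5 and 2. It was 4 and 4 after a further quantile normalization (7.92% together, against 7.84% of all genes) and 5 and 4 after cyclic loess (8.91%, against 8.18%). In LPS+RSV against control it was 9 and 2, but 13 and 1 after a further quantile normalization (13.9%, against 10.3%). The count of slopes on the cell cycle score, 27, was 9 without the 2 farthest arrays and ran from 14 (without LPS+RSV 2) and 15 (without control 5) to 32 over single arrays left out. The count of 32 came without LPS+RSV 1, where 28.2% of all genes had such a slope. The NRF1 letters stood in 19 members (21.3%, against 14.5% of tested genes). With 100 bases before the start they stood in 8 (8.99%, against 10.3%). The shorter core GCGCATG, which has T at the free base, stood in 9 (10.1%, against 7.77%). The cause of these moves was not tested.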
